A study of Mus musculus with 9 samples.

Results

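The Myc, Max and Mxd network was followed through hyperosmotic stress as 10 genes, Myc, Mycn, Mycl, Max, Mxd1, Mxd3, Mxd4, Mxi1, Mnt and Mga. They were taken by gene symbol from the 35275 genes measured, and all 10 were found. RNA came from wild type mouse embryonic fibroblasts (MEFs) of the C57Bl/6 strain. The cells were kept in iso-osmolar medium or placed for 3 h in medium with 200 mM added sucrose (500 mOsm, low-intensity stress) or 300 mM added sucrose (600 mOsm, high-intensity stress). Each treatment was sequenced from poly-T selected RNA as 3 libraries, with no genetic change in any of them. Nothing in the labels says whether the 3 libraries came from separate cultures, so p-values measure the spread between these libraries only.

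The Myc proteins are short-lived transcription factors that drive growth, ribosome production and cell division, and they bind DNA only when paired with Max. Max also pairs with the Mxd proteins (Mxd1, Mxd3, Mxd4 and Mxi1, which is also called Mxd2) and with Mnt, and these pairs recruit Sin3 corepressors to the same sites, so that activators and repressors compete for Max and for DNA. Mga, a very large Max partner that also carries a T-box domain, belongs to a Polycomb-type repressor complex. Mlx is a second partner of Mxd1, Mxd4 and Mnt and joins the network to the nutrient-sensing factors Mlxip (MondoA) and Mlxipl (ChREBP). In fibroblasts Myc is a growth factor responsive gene with an unstable mRNA.

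All of these pairs read the same letters, the E-box CACGTG, which is its own reverse complement. The set of promoter sequences used here came from RefSeq (GRCm38.p6), each of 300 bases, 250 of them before the start site. This set covered 9 of the 10 network genes, in 11 entries, and had no entry for Myc. The E-box stood in the promoters of 3 of these 9 genes, Max, Mxd4 and Mnt, and in those of Mlx and Mlxipl (in 1 of 2 entries) but not of Mlxip, while 7.15% of all 32851 promoters of this length held it. The 5 sites found are shown because these genes code for proteins of the network that reads this motif, with the E-box in capitals within 30 bases of the gene's own strand.
Max, chr12:76962234-76962263, minus strand: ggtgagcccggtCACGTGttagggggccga
Mxd4, chr5:34187912-34187941, minus strand: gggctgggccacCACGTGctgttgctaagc
Mnt, chr11:74830789-74830818, plus strand: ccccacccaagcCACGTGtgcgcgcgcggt
Mlx, chr11:101087238-101087267, plus strand: ggtgggttggatCACGTGactgagcctcgc
Mlxipl, chr5:135089780-135089809, plus strand: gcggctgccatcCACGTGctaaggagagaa
The E-box of Max lay across the start site. Those of Mlx, Mlxipl, Mnt and Mxd4 began 40, 98, 123 and 219 bases before it. The core letters of the osmotic response element, TGGAAA on either strand, stood in the Mycn promoter only among the 9 genes and in 21.43% of all promoters. A match to these letters is a description of the window and does not show binding.

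Each library held between 21716042 and 26740832 counts on genes, and 3 counts, taken as the smallest signal, corresponded to 0.112 to 0.138 CPM by the unscaled library total. This floor takes in counting error and nothing else. All other CPM values are relative to the TMM-scaled library size. Of the whole table, 13082 genes passed the filter on low counts and were tested in 1 edgeR quasi-likelihood fit of the 9 libraries. A gene was called at a Benjamini-Hochberg adjusted p under 0.05. The median log2 fold change over all tested genes was 0.01 in each of the 3 comparisons. The 8 fibroblast markers were all detected and summed to between 16112 and 20855 CPM per library. Markers of other cell types were far lower. The summed level of 5 endothelial markers was 0.778 to 0.899 CPM in iso-osmolar medium, 11.9 to 13.4 CPM at 500 mOsm and 2.13 to 3.18 CPM at 600 mOsm. That of 4 macrophage markers was 12.2 to 12.9, 17.3 to 19.6 and 11.5 to 12.1 CPM in the same order. That of 5 epithelial markers, Krt5 at 0 in every library, was 0.0455 to 0.164, 3.47 to 3.73 and 0.134 to 0.209 CPM. The part of these markers in the results was not tested, and in bulk RNA fewer cells of a type and less RNA per cell cannot be told apart.

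Of the 10 network genes, 9 passed the filter and Mycn did not. At 500 mOsm against iso-osmolar medium, 3 of the 9 were called higher (Mycl, Mxd1 and Mxd4) and 2 lower (Mnt and Max), where 13.2% of all tested genes were called higher and 14.8% lower. At 600 mOsm against iso-osmolar medium, 3 were called higher (Mycl, Mxd3 and Mxd4) and 3 lower (Myc, Mnt and Max), against 15.1% and 20.0% of all tested genes. Between the intensities, at 600 against 500 mOsm, Mnt was called higher and Myc and Mxd1 lower, against 11.9% and 17.2% of all tested genes. With 9 genes these counts are too few to set the network apart from the table as a whole, and each gene is described by its own values. The first and second comparisons share the iso-osmolar libraries, and the third shares libraries with both.

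**Figure D1:**
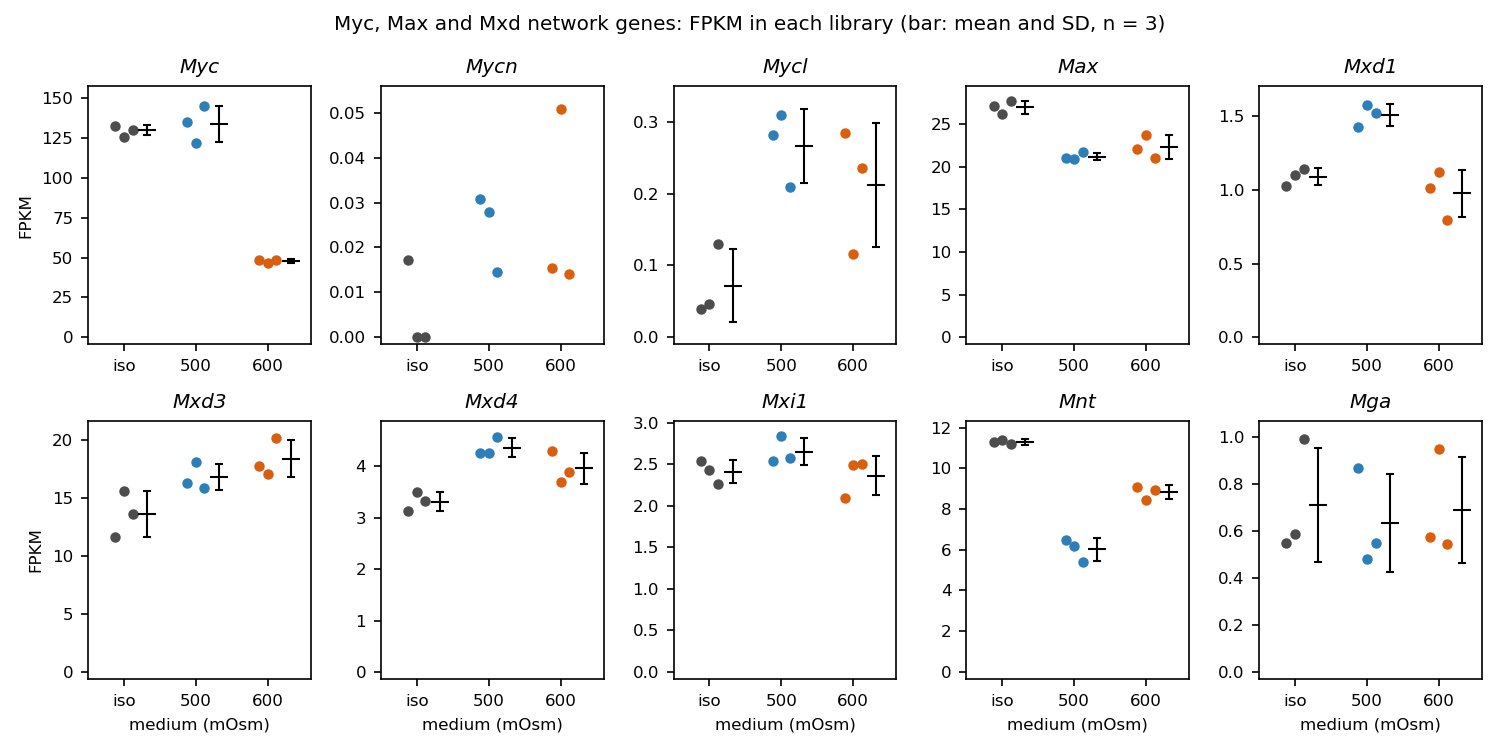
FPKM of the 10 network genes (vertical axes, each from 0) in each of the 9 libraries, by medium (iso, iso-osmolar, then 500 and 600 mOsm). Points are libraries and the black bars give the mean and SD of 3, left out for Mycn, whose counts lay between 0 and 3. Myc falls only at 600 mOsm, to 46.7 to 48.7 FPKM, while Mnt is lowest at 500 mOsm, at 5.40 to 6.50 FPKM.

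Myc (ENSMUSG00000022346, chr15:61985341-61990374, plus strand, GENCODE M21 on GRCm38) was by far the most abundant member. Its FPKM, a level scaled to gene length and library total, was 133, 126 and 130 in the iso-osmolar libraries, 135, 122 and 145 at 500 mOsm and 48.7, 46.7 and 48.5 at 600 mOsm. The 3 libraries at 600 mOsm were thus all far below the other 6, whose ranges overlapped. Myc was 2.67-fold lower at 600 mOsm than under iso-osmolar conditions (log2 fold change -1.42, SE 0.0575, edgeR adjusted p = 4.99e-09) and 2.75-fold lower than at 500 mOsm (log2 fold change -1.46, SE 0.0575, adjusted p = 2.15e-09). These ranked 19th and 30th by p among the 13082 genes. At 500 mOsm the log2 fold change against iso-osmolar medium was 0.05 with an SE of 0.0558 (adjusted p = 0.600). The counts behind these values ran from 2469 to 8951 per library, so counting error was small.

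The other Myc family genes were close to the floor. Mycn (chr12:12936096-12941914, minus strand), the family member best known from neural tissue, had counts of 1, 0 and 0 in the iso-osmolar libraries, 2, 2 and 1 at 500 mOsm and 1, 3 and 1 at 600 mOsm. No library exceeded 3 counts, so no fold is given. Mycl (chr4:122995652-123002485, plus strand), first described in lung cancer, had counts of 3, 4 and 11 in iso-osmolar medium, 24, 29 and 19 at 500 mOsm and 24, 9 and 22 at 600 mOsm. All libraries at 500 mOsm were above all iso-osmolar ones, whereas 1 library at 600 mOsm lay within the iso-osmolar range. Mycl was called higher at 500 mOsm (log2 fold change 1.86, SE 0.454, adjusted p = 0.00779) and at 600 mOsm (1.56, SE 0.474, adjusted p = 0.0223). The call at 600 mOsm was lost without iso-osmolar replicate 1 (adjusted p = 0.0813) or 2 (0.0810) and without 600 mOsm replicate 1 (0.0922) or 3 (0.0693). Even at its highest Mycl reached 0.310 FPKM, beside 122 FPKM for Myc in the same library.

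Max (chr12:76937269-76962248, minus strand), the obligate partner, was the second most abundant member and fell at both intensities. Its FPKM was 27.2, 26.2 and 27.7 in iso-osmolar medium, 21.1, 20.9 and 21.7 at 500 mOsm and 22.1, 23.8 and 21.0 at 600 mOsm. Every stressed library was below every iso-osmolar one. Max was 1.27-fold lower at 500 mOsm (log2 fold change -0.35, SE 0.0550, adjusted p = 3.72e-04) and 1.20-fold lower at 600 mOsm (-0.26, SE 0.0550, adjusted p = 0.00299). Between the intensities the log2 fold change was 0.09 (SE 0.0552, adjusted p = 0.266).

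Mnt (chr11:74830920-74845725, plus strand), the broadly expressed repressor that opposes Myc in dividing and resting cells alike, fell most at the lower intensity. Its FPKM was 11.3, 11.4 and 11.2 in iso-osmolar medium, 6.50, 6.19 and 5.40 at 500 mOsm and 9.09, 8.44 and 8.95 at 600 mOsm. The 3 treatments did not overlap, with 500 mOsm lowest and 600 mOsm between. Mnt was 1.87-fold lower at 500 mOsm than under iso-osmolar conditions (log2 fold change -0.90, SE 0.0767, adjusted p = 1.91e-06) and 1.26-fold lower at 600 mOsm (-0.34, SE 0.0753, adjusted p = 0.00420). It was 1.48-fold higher at 600 than at 500 mOsm (0.57, SE 0.0771, adjusted p = 1.33e-04). Mnt and Myc therefore differed between the intensities in opposite directions, each with all 3 libraries of one intensity on one side of the other.

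Mxd1 (chr6:86647044-86669159, minus strand), the repressor that classically replaces Myc when cells differentiate, was higher at 500 mOsm only. Its FPKM was 1.03, 1.10 and 1.14 in iso-osmolar medium, 1.43, 1.58 and 1.52 at 500 mOsm and 1.01, 1.12 and 0.799 at 600 mOsm. The 500 mOsm libraries were above the other 6, which overlapped. Mxd1 was 1.39-fold higher at 500 mOsm than under iso-osmolar conditions (log2 fold change 0.47, SE 0.125, adjusted p = 0.0127) and 1.54-fold lower at 600 than at 500 mOsm (-0.62, SE 0.126, adjusted p = 0.00270). At 600 mOsm against iso-osmolar medium its log2 fold change was -0.15 (SE 0.131, adjusted p = 0.413). Without iso-osmolar replicate 1 the rise at 500 mOsm missed the threshold (adjusted p = 0.0519).

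Mxd4 (chr5:34173887-34187720, minus strand), a repressor found mostly in resting and differentiated cells, was called higher at both intensities, less firmly at 600 mOsm. Its FPKM was 3.13, 3.50 and 3.32 in iso-osmolar medium, 4.25, 4.26 and 4.58 at 500 mOsm and 4.29, 3.70 and 3.89 at 600 mOsm. Every stressed library was above every iso-osmolar one. Mxd4 was 1.32-fold higher at 500 mOsm (log2 fold change 0.40, SE 0.0889, adjusted p = 0.00448) and 1.21-fold higher at 600 mOsm (0.28, SE 0.0897, adjusted p = 0.0305). The second call was lost in 4 of the fits that left out a library, without iso-osmolar replicate 1 (adjusted p = 0.110) or 3 (0.0774) and without 600 mOsm replicate 1 (0.129) or 3 (0.0712). It was also lost with the replicate block (adjusted p = 0.0681) and in limma on log2 FPKM with either pseudocount (0.0594 and 0.0558). An antisense gene, Gm42846, shares 514 exon bases with Mxd4, and the strand setting of the counting is not given in the sources used here, so reads of the 2 genes cannot be told apart there.

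Mxd3 (chr13:55325168-55329758, minus strand), the member of the Mxd group linked with S phase, was the third most abundant gene. Its FPKM was 11.6, 15.6 and 13.6 in iso-osmolar medium, 16.3, 18.1 and 15.9 at 500 mOsm and 17.8, 17.1 and 20.2 at 600 mOsm. All stressed libraries were above the iso-osmolar ones, by little in the case of the highest iso-osmolar library. Mxd3 was 1.37-fold higher at 600 mOsm than under iso-osmolar conditions (log2 fold change 0.45, SE 0.112, adjusted p = 0.00766). At 500 mOsm the log2 fold change was 0.30 (SE 0.112) and missed the threshold by edgeR (adjusted p = 0.0645), while DESeq2 put it at an adjusted p of 0.0469. It ranged from 0.19 without iso-osmolar replicate 1 (adjusted p = 0.235) to 0.42 without iso-osmolar replicate 2 (adjusted p = 0.0165), and was 0.22 without 500 mOsm replicate 2 (adjusted p = 0.226). The gene shares 105 exon bases with Prelid1 on the opposite strand, whose mean level was 417 ± 22.1, 433 ± 16.9 and 481 ± 29.9 CPM (SD, n = 3) in iso-osmolar, 500 mOsm and 600 mOsm medium. The part of those reads in the Mxd3 values was not tested.

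Mxi1 and Mga did not pass the test in any comparison. Mxi1 (chr19:53310506-53375810, plus strand), an antagonist of Myc first found as a Max interactor, lay between 2.09 and 2.84 FPKM in all 9 libraries, with group means of 2.41 ± 0.140, 2.65 ± 0.164 and 2.36 ± 0.233 FPKM (SD, n = 3) in iso-osmolar, 500 mOsm and 600 mOsm medium. Its log2 fold changes were 0.15 at 500 mOsm (SE 0.0994, adjusted p = 0.321), -0.01 at 600 mOsm (SE 0.101, adjusted p = 0.956) and -0.15 between the intensities (SE 0.0993, adjusted p = 0.278).

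Mga (chr2:119897228-119969581, plus strand) varied more within treatments than between them. Its FPKM was 0.549, 0.587 and 0.988 in iso-osmolar medium, 0.868, 0.478 and 0.549 at 500 mOsm and 0.574, 0.948 and 0.543 at 600 mOsm. One library of each treatment stood high, iso-osmolar 3, 500 mOsm 1 and 600 mOsm 2, and the other 6 lay between 0.478 and 0.587 FPKM. The SEs of its log2 fold changes, 0.270 to 0.271, were accordingly wide, and the values were -0.17, -0.03 and 0.14 for 500 mOsm and 600 mOsm against iso-osmolar medium and for 600 against 500 mOsm (adjusted p = 0.702, 0.936 and 0.754, edgeR). Mga has the longest transcript of the network (13931 bases, 42.2% GC). In the same 3 libraries the 20% of genes lowest in GC lay a median of 0.08, 0.11 and 0.09 above their means over all libraries on the log2 scale, and in iso-osmolar 1, where Mga was not high, 0.08 above. With GC content and length corrected for, the Mga log2 fold change at 600 mOsm against iso-osmolar medium turned from -0.03 to 0.20, again short of the threshold (adjusted p = 0.380). Mga also shares stretches of at least 100 bases with 103 other genes of the GENCODE M21 annotation, so its counts are uncertain to that extent.

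**Figure D2:**
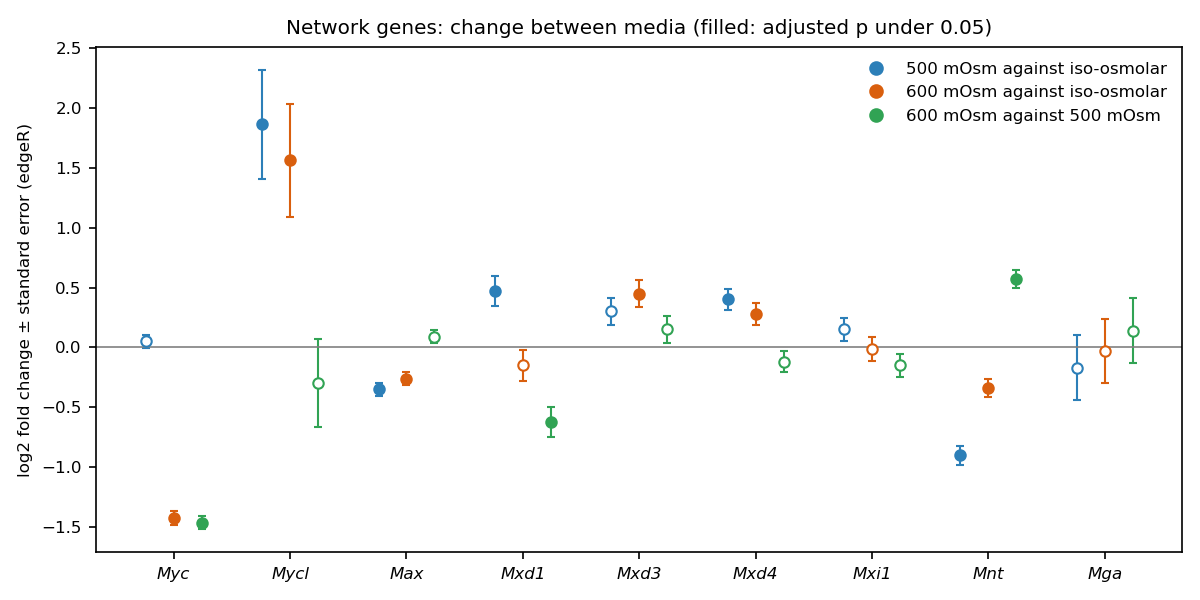
Log2 fold change with its standard error (vertical axis, edgeR) of the 9 network genes tested, for 500 mOsm against iso-osmolar (blue), 600 mOsm against iso-osmolar (orange) and 600 against 500 mOsm (green). Filled points passed an adjusted p under 0.05. Myc stands at -1.42 and -1.46 in the comparisons with 600 mOsm, and Mnt lies at -0.90 at 500 mOsm and at 0.57 between the intensities.

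Per length, the order of the 10 genes by mean FPKM was the same in all 3 media. It ran Myc, Max, Mxd3, Mnt, Mxd4, Mxi1, Mxd1, Mga, Mycl and Mycn. Neighbours in this order did not overlap over their libraries, except Mxd1 (0.976 ± 0.161 FPKM) and Mga (0.688 ± 0.225 FPKM, SD, n = 3) at 600 mOsm. The distances changed. Mean Myc was 4.80 times mean Max in iso-osmolar medium, 6.31 times at 500 mOsm and 2.15 times at 600 mOsm. Mxd3 and Mnt were near each other in iso-osmolar medium, where Mxd3 was 1.20 times Mnt, and apart at 500 mOsm (2.78 times) and 600 mOsm (2.08 times).

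Ratios within a library do not depend on its total and were read as a description, since 3 libraries against 3 cannot reach 0.05 by exact permutation. Myc over Max was 4.88, 4.82 and 4.70 in the iso-osmolar libraries, 6.41, 5.84 and 6.67 at 500 mOsm and 2.20, 1.96 and 2.31 at 600 mOsm, so the 3 treatments did not overlap. The summed FPKM of the 5 repressor genes Mxd1, Mxd3, Mxd4, Mxi1 and Mnt stayed near the same level, at 31.7 ± 2.19, 31.3 ± 1.49 and 34.5 ± 1.72 (SD, n = 3), with overlapping libraries. Over Max, this sum was 1.09 to 1.30 in iso-osmolar medium, 1.38 to 1.58 at 500 mOsm and 1.38 to 1.73 at 600 mOsm.

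The make-up of the repressor sum differed more than its size. Mxd3 was the largest part of the sum in each medium. How far Prelid1 reads entered its level, and so these ratios, was not tested. Mnt over the 4 Mxd genes was 0.619, 0.506 and 0.549 in iso-osmolar medium, 0.266, 0.232 and 0.219 at 500 mOsm and 0.360, 0.346 and 0.327 at 600 mOsm, with no overlap between treatments. Myc over the repressor sum was 3.72 to 4.47 in iso-osmolar medium and 3.70 to 4.82 at 500 mOsm, which overlapped, and 1.34 to 1.42 at 600 mOsm. Myc made up 68.6 ± 1.16% of the FPKM of the 10 genes in the iso-osmolar libraries, 71.4 ± 2.18% in those of 500 mOsm and 45.4 ± 0.629% in those of 600 mOsm (SD, n = 3). These are shares of mRNA and say nothing of the amounts of protein.

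**Figure D3:**
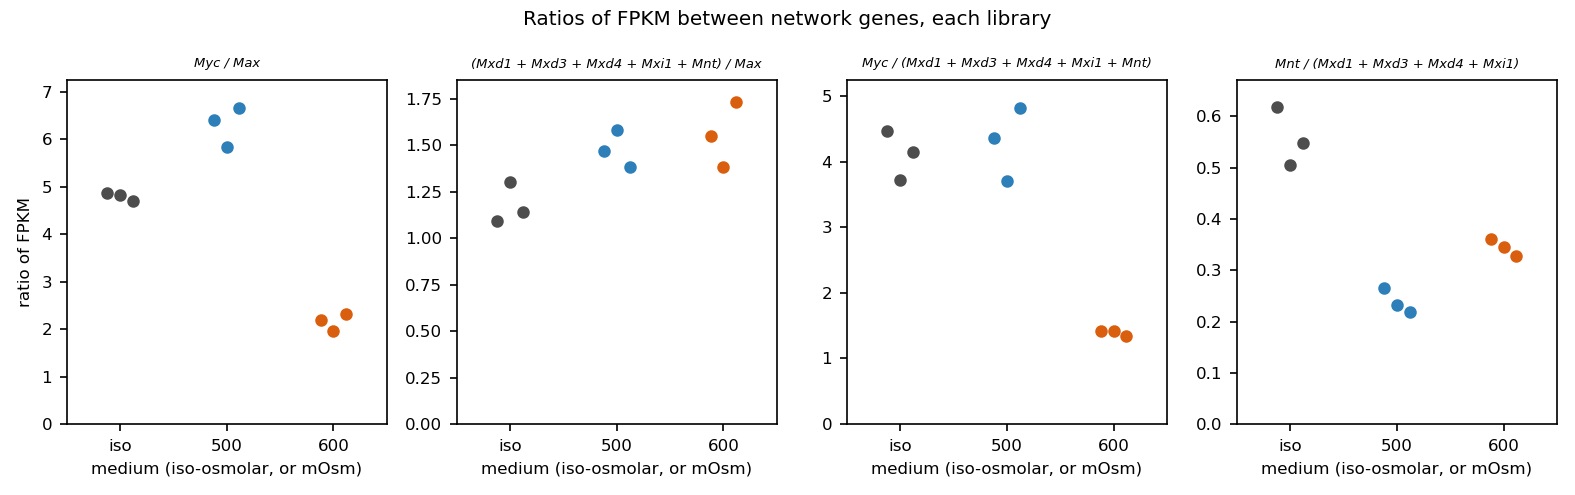
Ratios of FPKM between network genes (vertical axes, each from 0) in each library, by medium, 1 point per library. Myc over Max lies at 4.70 to 4.88 in iso-osmolar medium, 5.84 to 6.67 at 500 mOsm and 1.96 to 2.31 at 600 mOsm, and Mnt over the Mxd genes is lowest at 500 mOsm, at 0.219 to 0.266.

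In the Mlx arm, Mlxip was called lower at 600 mOsm and Mlx was not called. Mlx (chr11:101087277-101092207), the second partner of Mxd1, Mxd4 and Mnt, had 19.9 ± 1.02, 18.0 ± 1.03 and 18.1 ± 0.697 FPKM (SD, n = 3) in iso-osmolar, 500 mOsm and 600 mOsm medium. Its log2 fold changes of -0.14 (SE 0.0656, adjusted p = 0.129) and -0.12 (SE 0.0658, adjusted p = 0.192) against iso-osmolar medium did not pass the edgeR test. Mlxip (chr5:123394798-123457932), the glucose-sensing factor MondoA, had an FPKM of 7.81, 7.02 and 7.23 in iso-osmolar medium, 7.03, 7.51 and 7.64 at 500 mOsm and 5.82, 5.44 and 5.34 at 600 mOsm. It was lowest in the 600 mOsm libraries, which did not overlap the others. Mlxip was 1.31-fold lower at 600 mOsm than under iso-osmolar conditions (log2 fold change -0.39, SE 0.0623, adjusted p = 4.36e-04) and 1.32-fold lower than at 500 mOsm (-0.40, SE 0.0621, adjusted p = 3.74e-04), the same direction as Myc but smaller. Mlxipl, the ChREBP gene of liver and fat, was not tested, with counts of 0 in every iso-osmolar library, 0, 3 and 2 at 500 mOsm and 6, 1 and 3 at 600 mOsm.

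The genes most like each network gene were those with the highest Pearson r of log2 CPM over the 9 libraries, among the 8403 genes whose average log2 CPM was 3 or more. The 9 libraries fall into 3 treatments, so a high r describes a shared pattern over the treatments. For Myc these were Spry2 (r = 0.995), a feedback inhibitor of growth factor signalling, Nr4a1 (0.993), an immediate early gene, and the mitochondrial gene mt-Nd6 (0.993). Nr4a1 was at 21.8 ± 1.71, 22.6 ± 0.516 and 9.41 ± 0.218 CPM, and Spry2 at 25.7 ± 1.02, 27.4 ± 0.870 and 8.74 ± 0.960 CPM (SD, n = 3), in iso-osmolar, 500 mOsm and 600 mOsm medium. Both had their lowest level at 600 mOsm, as Myc did.

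Among the genes closest to Mnt were Zfp263 (r = 0.992) and Lmnb1 (0.990), the nuclear lamina protein lamin B1. Lmnb1 was at 243 ± 2.98, 157 ± 5.80 and 214 ± 6.33 CPM (SD, n = 3) in the same order of media, with 500 mOsm lowest. For Max they were mt-Co2 (0.991), Zfp142 (0.988) and Gcnt1 (0.986), for Mxd1 Gatc (0.969), Mtmr3 (0.960) and Nhsl1 (0.949), for Mxd3 Fam195b (0.987), Itm2c (0.986) and Gapdh (0.979), and for Mxd4 they included Ctdsp2 (0.960) and Btbd2 (0.955). The values were lower for Mycl, with Rit1 (0.951), AI462493 (0.932) and Tmem206 (0.923), and for Mxi1, with Nacc2 (0.867), Tmem104 (0.844) and Tlcd1 (0.839), which had the least movement of its own. Mga was matched by Usp16 (0.997), Chd9 (0.973) and Ppip5k2 (0.972). Usp16 was at 15.4 ± 3.27, 14.4 ± 3.02 and 15.4 ± 3.28 CPM (SD, n = 3), so the likeness to Mga lay in the spread between libraries of 1 treatment and not in a difference between treatments.

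Genes that Myc is known to activate were set beside the Myc mRNA at the single time of 3 h. These data give no amounts of Myc protein, and how far the targets followed Myc was not tested. Of the 52 activated targets tested, mostly genes of ribosome production, nucleotide synthesis and metabolism, 15 fell and 0 rose at 500 mOsm (28.8% and 0%, beside 14.8% and 13.2% of all tested genes), where Myc mRNA did not pass the test. The count of 0 was the same by DESeq2 and at an unadjusted p under 0.05. With the replicate block 12 fell and 0 rose, beside 1681 and 1430 of all tested genes. At an adjusted p under 0.01, 9 fell, beside 1337 of all tested genes. The largest of the named falls was that of Hk2, the glycolytic enzyme hexokinase 2, from 138 to 147 CPM in iso-osmolar medium to 70.6 to 74.9 CPM at 500 mOsm (1.95-fold lower, log2 fold change -0.97, SE 0.050, adjusted p = 2.59e-08). Polr1b, a subunit of RNA polymerase I, was 1.36-fold lower (adjusted p = 1.55e-05) and Cdc25a, a phosphatase that activates cyclin-dependent kinases, 1.34-fold lower (adjusted p = 6.99e-05). The list had a median log2 fold change of -0.08, beside 0.01 over all tested genes. The share called also depends on the SE of each gene, and the list was not matched to all tested genes for this.

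At 600 mOsm against iso-osmolar medium, where Myc mRNA was 2.67-fold lower, 9 of the 52 fell and 3 rose (17.3% and 5.77%, beside 20.0% and 15.1% of all tested genes), and the median log2 fold change was 0.01, the value of all tested genes. In the main fit the share that fell was thus near that of the whole table. Hk2 (96.3 to 102 CPM) was 1.44-fold lower, Rrs1, a ribosome assembly factor, 1.37-fold lower and Pus7, a pseudouridine synthase, 1.31-fold lower (adjusted p = 5.88e-06, 4.82e-05 and 5.37e-04, edgeR). The 3 that rose did so by little. Bop1, a ribosome assembly factor, was 1.15-fold higher (adjusted p = 0.0317), Hspe1, a mitochondrial chaperonin subunit, 1.10-fold higher (0.0323) and Phb, prohibitin, 1.09-fold higher (0.0362). With the replicate block, and without 600 mOsm replicate 1 or 3, 0 of the 52 were called higher, without iso-osmolar replicate 1 or 2 there was 1, and without 600 mOsm replicate 2 there were 5.

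Between the intensities more of the activated targets were called higher than lower, while Myc was lower. At 600 against 500 mOsm, 15 of the 52 were higher and 3 lower (28.8% and 5.77%, beside 11.9% and 17.2% of all tested genes), with a median of 0.10. With the replicate block 9 were higher and 2 lower, beside 1153 and 1936 of all tested genes. Over all alternatives the number higher ran from 8 to 21. Hk2 was 1.36-fold higher at 600 mOsm (adjusted p = 2.90e-05), the folate carrier Slc19a1 1.24-fold (8.44e-04) and the ribosome assembly factor Ppan 1.30-fold (0.00184). The lower ones were Pus7 (1.23-fold, adjusted p = 0.00427), the chaperonin Hspd1 (1.19-fold, 0.0164) and the Ran exchange factor Rcc1 (1.12-fold, 0.0369). GC content and length were also corrected for, a choice made after seeing the data. At 500 mOsm against iso-osmolar medium 23 targets were then lower and 2 higher. At 600 mOsm against iso-osmolar medium 16 were lower and 6 higher, and at 600 against 500 mOsm 5 were lower and 21 higher. Of the 13022 genes in that fit, 2487, 2791 and 2436 were lower and 2257, 2123 and 2022 higher in these comparisons.

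Genes that Myc is known to repress moved in both directions. Of the 11 tested, 5 rose and 1 fell at 500 mOsm, 4 rose and 3 fell at 600 mOsm against iso-osmolar medium, and 2 were higher and 2 lower at 600 than at 500 mOsm. In the same order 13.2%, 15.1% and 11.9% of all tested genes were higher and 14.8%, 20.0% and 17.2% lower. With the replicate block 0 of the 11 were higher at 600 than at 500 mOsm. Gadd45a, a growth arrest and DNA damage gene, was at 2.96 to 3.28 CPM in iso-osmolar medium, 10.0 to 11.5 CPM at 500 mOsm and 2.19 to 2.47 CPM at 600 mOsm. It was 3.44-fold higher at 500 mOsm (adjusted p = 1.47e-07) and 1.32-fold lower at 600 mOsm (adjusted p = 0.0316). Cdkn1a, the cell cycle inhibitor p21, was at 14.6 to 17.3, 19.7 to 23.9 and 4.34 to 5.56 CPM and so 3.37-fold lower at 600 mOsm than under iso-osmolar conditions (adjusted p = 4.19e-07).

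The cyclin-dependent kinase inhibitor gene Cdkn2b rose at both intensities, 1.49-fold at 500 mOsm (adjusted p = 5.60e-04) and 1.41-fold at 600 mOsm (adjusted p = 0.00166). Cdkn1b, another inhibitor of this kind, was 1.25-fold higher at 500 mOsm (adjusted p = 0.00253). Ndrg1, a stress-responsive gene, fell at both, 2.12-fold at 500 mOsm (adjusted p = 1.33e-07) and 2.37-fold at 600 mOsm (adjusted p = 5.88e-08). Pdgfrb, a growth factor receptor and itself a fibroblast marker, was 1.22-fold higher at 600 mOsm than under iso-osmolar conditions (adjusted p = 1.57e-04), and Cdkn2c was 1.26-fold higher (adjusted p = 0.0115).

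**Figure D4:**
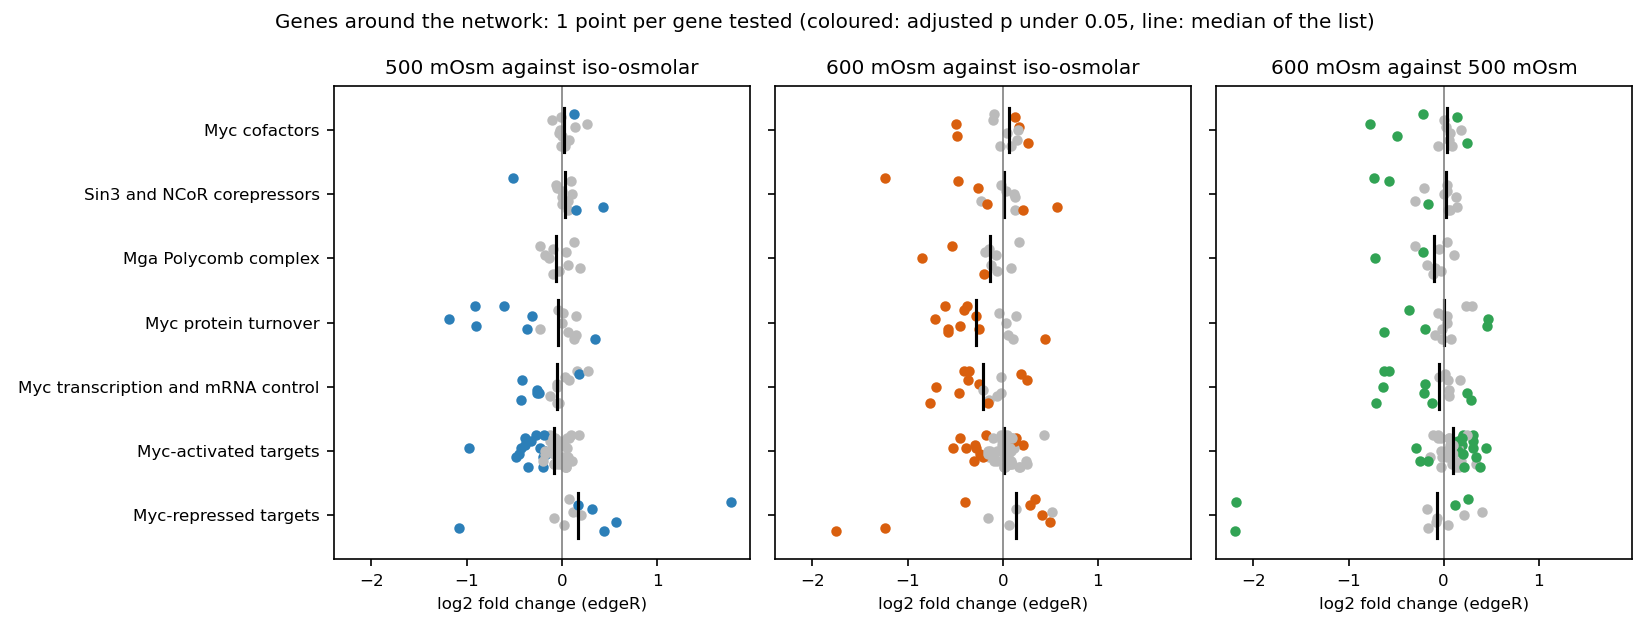
Log2 fold change (horizontal axis, edgeR) of the genes tested in 7 lists around the network, 1 panel per comparison and 1 point per gene. Coloured points passed an adjusted p under 0.05, grey points did not, and black lines are the medians. The Myc-activated targets have medians of -0.08, 0.01 and 0.10 from left to right.

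The genes that control Myc transcription and its mRNA were lower more often than higher. Of 15 tested, 5 fell and 1 rose at 500 mOsm, 8 fell and 2 rose at 600 mOsm, and 7 were lower and 2 higher at 600 than at 500 mOsm, with medians of -0.05, -0.21 and -0.05. The shares lower were 33.3%, 53.3% and 46.7%, beside 14.8%, 20.0% and 17.2% of all tested genes, where falls outnumbered rises as well (13.2%, 15.1% and 11.9% higher). Cdk9, the elongation kinase, fell 1.18-fold at 500 mOsm (adjusted p = 0.00910) and 1.37-fold at 600 mOsm (adjusted p = 1.14e-04). Its partner Ccnt1 fell 1.34-fold at 500 mOsm (adjusted p = 0.00977) and was also lower at 600 mOsm (log2 fold change -0.37, adjusted p = 0.0174, edgeR). Ctcf, the insulator protein, was 1.49-fold lower at 600 than at 500 mOsm (adjusted p = 1.19e-04). At 600 mOsm it was also lower than in iso-osmolar medium (log2 fold change -0.41, adjusted p = 0.00125, edgeR).

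Among the RNA-binding proteins of that list, Hnrnpd (AUF1), which binds AU-rich elements, was 1.62-fold lower at 600 mOsm (adjusted p = 6.28e-05) and 1.56-fold lower than at 500 mOsm (adjusted p = 1.28e-04). Igf2bp1, which protects the Myc mRNA, was at 163 to 170 CPM in iso-osmolar medium, 121 to 127 CPM at 500 mOsm and 139 to 160 CPM at 600 mOsm, and so 1.35-fold lower at 500 mOsm (adjusted p = 6.44e-05) and 1.22-fold higher at 600 than at 500 mOsm (adjusted p = 0.00175). Fubp1, which binds single-stranded DNA upstream of Myc, rose 1.13-fold at 500 mOsm (adjusted p = 0.0333) and 1.14-fold at 600 mOsm (adjusted p = 0.0236), and its interactor Puf60 1.19-fold at 600 mOsm (adjusted p = 0.00770). The rise of Fubp1 at 500 mOsm was the only one of the list there and the count was 0 with the replicate block, with library size alone, without the filter on low counts, in the fit of 2 treatments and in both limma fits. It was also 0 without iso-osmolar replicate 2 or 3, 500 mOsm replicate 1 or 3, or 600 mOsm replicate 1. The long noncoding RNA Pvt1, a chromosomal neighbour of Myc, was at 39.8 to 42.3, 32.5 to 36.7 and 39.1 to 42.2 CPM in the 3 media and 1.18-fold higher at 600 than at 500 mOsm (adjusted p = 0.0181), unlike Myc.

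Of 15 genes for the turnover of the Myc protein, 6 fell and 1 rose at 500 mOsm and 9 fell and 1 rose at 600 mOsm, with medians of -0.04 and -0.28. Of all tested genes, 14.8% and 20.0% fell and 13.2% and 15.1% rose. Between the intensities 2 were higher and 3 lower (13.3% and 20.0%, beside 11.9% and 17.2% of all tested genes), and 4 higher and 1 lower with GC content and length corrected for. The genes that fell include both sides of the process. Fbxw7, the ubiquitin ligase subunit that marks phosphorylated Myc for degradation, was at 9.79 to 11.3 CPM in iso-osmolar medium, 3.58 to 5.16 CPM at 500 mOsm and 5.65 to 6.80 CPM at 600 mOsm, 2.26-fold lower at 500 mOsm (log2 fold change -1.18, SE 0.141, adjusted p = 3.85e-05). Skp2, another ligase subunit for Myc, was 1.87-fold lower at 500 mOsm (adjusted p = 2.16e-07) and 1.37-fold lower at 600 mOsm (adjusted p = 8.83e-05).

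Gsk3b, the kinase whose mark on Myc is read by Fbxw7, was 1.48-fold lower at 600 mOsm than under iso-osmolar conditions (adjusted p = 1.57e-05) and 1.55-fold lower than at 500 mOsm (adjusted p = 7.15e-06). The ligase Huwe1 was 1.28-fold lower at 600 than at 500 mOsm (adjusted p = 0.00339). At 600 mOsm it was also lower than in iso-osmolar medium (log2 fold change -0.41, adjusted p = 0.00139, edgeR). On the stabilising side, Usp36, a nucleolar deubiquitinase, fell 1.30-fold at 500 mOsm (adjusted p = 5.97e-05) and 1.49-fold at 600 mOsm (adjusted p = 1.89e-06). Aurka, the mitotic kinase that shields Myc proteins from Fbxw7, was the gene of the list that rose, 1.28-fold at 500 mOsm (adjusted p = 6.59e-05) and 1.35-fold at 600 mOsm (adjusted p = 1.33e-05).

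The corepressors of the Sin3 and NCoR complexes, which Mxd and Mnt use, gave 2 rises and 1 fall among 12 at 500 mOsm and 2 rises and 4 falls at 600 mOsm, with medians of 0.03 and 0.01. These were 16.7% and 8.33% at 500 mOsm and 16.7% and 33.3% at 600 mOsm, beside 13.2% and 14.8% and then 15.1% and 20.0% of all tested genes. With GC content and length corrected for, 5 in place of 2 rose at 600 mOsm. Sap30 and Suds3, subunits of the Sin3 complex, rose at both intensities, Sap30 1.35-fold and 1.48-fold (adjusted p = 0.00134 and 1.76e-04, edgeR) and Suds3 1.11-fold and 1.15-fold (adjusted p = 0.0257 and 0.00458). The count of rises at 500 mOsm was 1 in place of 2 with the replicate block, without the filter on low counts and at an adjusted p under 0.01. It was also 1 without iso-osmolar replicate 1 or 3 or 500 mOsm replicate 2. Sap130 was 1.39-fold lower at 600 mOsm (adjusted p = 3.62e-05) and the deacetylase Hdac2 1.19-fold lower (adjusted p = 0.0190). Between the intensities edgeR called 3 lower and 0 higher, beside 17.2% and 11.9% of all tested genes. DESeq2 called 5 lower and 0 higher, and 1 was higher at an unadjusted p under 0.05 by edgeR. With GC content and length corrected for, 4 were lower and 2 higher at 600 than at 500 mOsm. Of the 13022 genes in that fit, 2436 were lower and 2022 higher.

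The 10 partners of Mga in its Polycomb-type complex gave 0 calls at 500 mOsm by edgeR. Of all tested genes 13.2% were higher and 14.8% lower there. The count for the partners was also 0 by DESeq2 and 0 at an unadjusted p under 0.05. At 600 mOsm 3 fell and 0 rose (beside 20.0% and 15.1% of all tested genes), by DESeq2 as well, with 1 higher at an unadjusted p under 0.05. With GC content and length corrected for, 4 fell and 1 rose. Rybp was at 15.0 to 17.2, 12.7 to 16.4 and 7.88 to 9.75 CPM in the 3 media and 1.80-fold lower at 600 mOsm (log2 fold change -0.85, SE 0.118, adjusted p = 1.47e-04). Rnf2, the ubiquitin ligase of the complex, was 1.44-fold lower (adjusted p = 0.00674) and Cbx1, a heterochromatin protein, 1.15-fold lower (adjusted p = 0.0122). Between the intensities 2 partners were lower and 0 higher (20.0% and 0%, beside 17.2% and 11.9% of all tested genes). With GC content and length corrected for, 6 were lower there, and with the replicate block 1.

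Of 12 Myc cofactors, 1 was called at 500 mOsm, Hcfc1, 1.10-fold higher (adjusted p = 0.0339). That is 8.33%, beside 13.2% of all tested genes, and 0 were higher there with the replicate block and without iso-osmolar replicate 1 or 2 or 500 mOsm replicate 1 or 2. At 600 mOsm 3 rose and 2 fell (beside 15.1% and 20.0% of all tested genes). With the replicate block, and without iso-osmolar replicate 1 or 3 or 600 mOsm replicate 1 or 3, 1 rose. Ep400, the ATPase of a histone exchange complex that Myc recruits, was at 167 to 179, 174 to 176 and 119 to 131 CPM and 1.40-fold lower at 600 mOsm (log2 fold change -0.48, SE 0.0495, adjusted p = 1.18e-05). The chromatin remodelling subunit Bptf was 1.41-fold lower (adjusted p = 0.0176), Smarcb1 (SNF5), which binds Myc directly, 1.20-fold higher (adjusted p = 9.36e-04), the acetyltransferase Kat2a 1.12-fold higher (adjusted p = 0.0288) and the ATPase Ruvbl1 1.09-fold higher (adjusted p = 0.0379). In the 3 libraries at 600 mOsm the median deviation of the longest 20% of genes from their mean over all libraries was -0.13, -0.04 and -0.17 on the log2 scale. With GC content and length corrected for, 1 cofactor in place of 2 was lower and 1 in place of 3 higher at 600 mOsm against the iso-osmolar libraries, and at 500 mOsm 0 were higher and 2 lower. Of the genes of Myc turnover, 6 in place of 9 were then lower at 600 mOsm and 2 in place of 1 higher.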

How the data were processed

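RNA-seq was analysed for 9 libraries of wild type MEFs, 3 each in iso-osmolar, 500 mOsm and 600 mOsm medium. The authors deposited unnormalized read counts per gene and FPKM made with the gene length. Reads were aligned to mm10 (STAR and CASAVA 1.8 are named in the submitters' processing notes, with no role), and the counting tool and its strand setting are not given in the sources used here. The deposited log2 fold changes, p-values and normalized levels of the authors' own comparisons were not used.

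Counts were scaled by TMM and tested with edgeR 4.0.16 (quasi-likelihood) in R 4.3.3, with treatment as the factor, filterByExpr and Benjamini-Hochberg adjustment over the genes tested, threshold 0.05. On simulated counts of 600 mOsm against iso-osmolar, 88.0% of 100 genes with a simulated log2 fold change of 1 were recovered among 13082. In that simulation 8 unchanged genes were called. Changes below 1 were not simulated, so their recovery was not tested. Libraries held at least 21716042 counts. Levels of different genes were compared only as FPKM. Positions are those of GENCODE M21 on GRCm38 and blastn 2.17.0 was used to find shared sequence, at 95% identity.

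The network genes and the lists (partners, cofactors, turnover, control, targets and cell type markers, from general knowledge) were chosen with earlier results of these data known. In the text the network genes and the Mlx arm were always named, in other lists at most the 3 called genes with the smallest p per direction and comparison, and the 3 genes most like each network gene. Some genes that this rule names are not reported here. Replicate numbers were not used to pair the libraries in the main fit. The alternatives were DESeq2 1.42.0, limma 3.58.1 on log2 FPKM, other scaling, filters and thresholds, fits of 2 treatments, a replicate block, each library left out, and, added after seeing the data, a GC and length correction.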

Additional observations from a re-analysis of the deposited data

How the results depend on the processing

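Over the 27 pairs of a network gene and a comparison, 564 values were recomputed under 20 or 21 alternatives each, and 531 kept their direction and their side of the threshold. The calls of Myc, Mnt and Max kept both in every alternative run. The number of network genes higher at 600 mOsm against iso-osmolar medium went from 3 to 1 at an adjusted p under 0.01 and ranged from 1 to 3 when single libraries were left out, with 1 without iso-osmolar replicate 1, 600 mOsm replicate 1 or 600 mOsm replicate 3. The other counts of network genes stayed within 1 of the main value.

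Signs turned only for values that had not passed the test. With the GC and length correction, with and without the replicate block, Mxi1 at 600 mOsm against iso-osmolar medium went from -0.01 to 0.15 (log2) in both, and Mga from -0.03 to 0.20 and, with the block, 0.21. When single libraries were left out, Myc at 500 mOsm ranged from -0.00 to 0.09, Mxi1 at 600 mOsm from -0.07 to 0.07, and Mga from -0.46 to 0.14 at 500 mOsm, from -0.31 to 0.28 at 600 mOsm and from -0.14 to 0.43 between the intensities.

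The replicate numbers of the titles gave no clear pairing of the libraries. Deviations from the treatment means correlated at -0.24 on average over 9 pairs with the same number (from -0.69 to 0.61) and at 0.12 over 18 with different numbers. As deviations were taken within each treatment, these averages depend on each other. Whether libraries of the same number shared a culture or day was not tested. With the replicate block, Mxd4 at 600 mOsm had an adjusted p of 0.0681 in place of 0.0305, and 3798 in place of 4594 genes of the table were called in that comparison. The block changed no other call of a network gene. Depth limits Mycn, Mycl and Mlxipl, whose counts did not exceed 29 per library.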
